A study of Bos taurus with 25 samples.

Results

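Liver and mammary gland of the same animals were compared in 12 multiparous lactating Holstein cows, each biopsied in both tissues 64 ± 3 days after calving. These 24 arrays, 12 per tissue, were taken from the 25 arrays of the series by keeping every cow with an array of both tissues. The mammary array of the remaining cow, numbered 31, was left out. Each array was a 1-colour Agilent bovine expression array that held the labelled RNA of one biopsy, a mixture of all the cell types in the piece of tissue. All cows received 5 mL intramuscular injections every week. The injection was saline in the 3 control cows (Ctl: 42, 43 and 51), 320 mg of folic acid in 3 cows (B9: 39, 41 and 57), 10 mg of cyanocobalamin in 4 cows (B12: 36, 37, 40 and 52) and both vitamins in 2 cows (B9_B12: 32 and 38). Lactation was shared by every cow, so that no tissue of a dry cow served as a reference.

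The liver of a lactating cow makes most plasma proteins, clears ammonia as urea and supplies nearly all the glucose of the animal by gluconeogenesis, since little glucose is absorbed from the rumen. The mammary gland draws that glucose, together with amino acids and fatty acids, from the blood and turns it into lactose, caseins and milk fat. Folate carries one-carbon units for the synthesis of nucleotides and for the remethylation of homocysteine to methionine, and vitamin B12 is the cofactor of methionine synthase and of methylmalonyl-CoA mutase. The last enzyme lets propionate, the main glucose precursor of ruminants, enter gluconeogenesis.

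Levels are normalized log2 intensities, and a difference is the level in liver minus the level in mammary gland of the same cow, averaged over the 12 cows, with the standard deviation (SD) between cows. One unit is a doubling of the intensity. A gene was called at a Benjamini-Hochberg adjusted p of at most 0.05 (limma, cow as a block) and a difference of at least 2-fold. Levels of different genes are not compared, because each probe has its own brightness.

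The markers separated the tissues on all 24 arrays, in the direction of the labels. ALB, the gene of serum albumin, had liver levels of 17.75 to 18.18 (median 17.91) and mammary levels of 6.16 to 11.33 (median 6.53). The tissue ranges did not overlap, and the difference was 10.96 ± 1.49 (SD, n = 12 cows; limma adjusted p = 1.51e-11). FGB, the fibrinogen beta chain, reached 16.66 to 18.46 in liver (median 17.71) and 5.98 to 8.93 in mammary gland (median 6.15). APOC3, an apolipoprotein of triglyceride-rich particles, ranged from 16.96 to 17.38 in liver (median 17.09) and from 6.53 to 8.31 in mammary gland (median 6.75). Both were higher in the liver of every cow, by 11.29 ± 0.89 for FGB and 10.30 ± 0.51 for APOC3. In the other direction, CSN1S1, the alpha-S1 casein, had levels of 6.81 to 10.96 in liver (median 7.93) and of 17.93 to 18.06 in mammary gland (median 17.99). LALBA, alpha-lactalbumin, was measured at 6.43 to 9.94 in liver (median 7.35) and at 18.58 to 18.69 in mammary gland (median 18.65). BTN1A1, butyrophilin of the milk fat globule membrane, lay between 5.89 and 6.12 in liver (median 5.98) and between 16.63 and 17.14 in mammary gland (median 17.01). These 3 genes were higher in the mammary gland of every cow, with differences of −9.58 ± 1.31, −10.92 ± 1.12 and −10.98 ± 0.17. The BTN1A1 probe was well above background on only 1 of the 12 liver arrays, and the FGB probe on 3 mammary arrays. Over the scalings these differences reached −16.74 for BTN1A1 and 14.62 for FGB. For each of the 6 markers the exact two-sided sign-flip permutation test over the cows gave p = 0.000488, the smallest it can give.

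**Figure D1:**
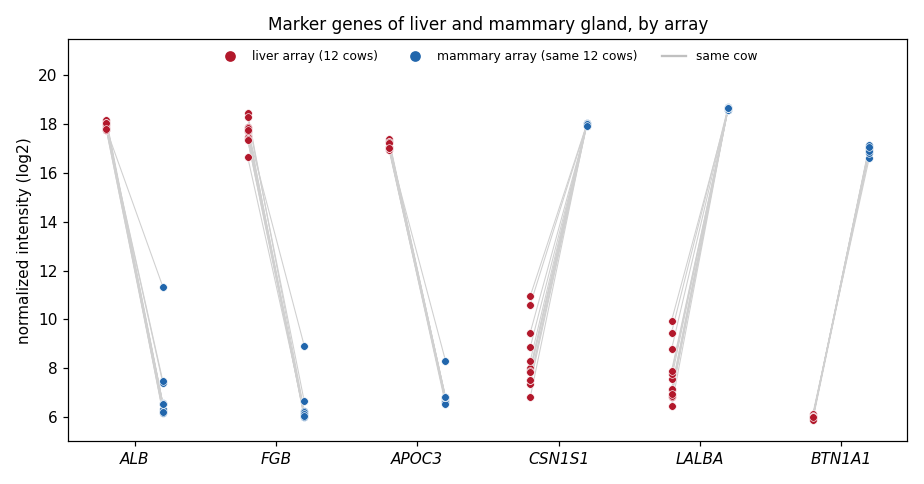
Normalized log2 intensity of 6 marker genes on each liver array and each mammary array of the same 12 cows, with a line joining the tissues of a cow. The liver arrays of ALB lie between 17.75 and 18.18 and the mammary arrays between 6.16 and 11.33, and no marker has overlapping tissues.

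Transcripts of each tissue were also measured on some arrays of the other tissue, and these arrays were not spread evenly over the cows. The mean level of the 20 plasma protein genes on the mammary arrays was 9.24 in cow 57, while the other 11 mammary arrays lay between 7.26 and 7.83. The mean level of the 9 milk protein genes on the liver arrays was 9.86 in cow 36, 9.41 in cow 37 and 9.09 in cow 57, against a median of 7.99 over the 12 liver arrays. Cows 57 and 32 had the differences least like those of the others, with median correlations across genes of 0.867 and 0.901 with the other cows, where the remaining 10 cows had 0.943 to 0.959. ALB differed by 6.47 in cow 57, the lowest of the 12 values, and by 11.36 on average without this cow. Without cows 32 and 57 the numbers of called genes were 2330 for liver and 3235 for mammary gland, close to those with all cows. The part of tissue carried over between samples in these values was not tested.

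**Figure D2:**
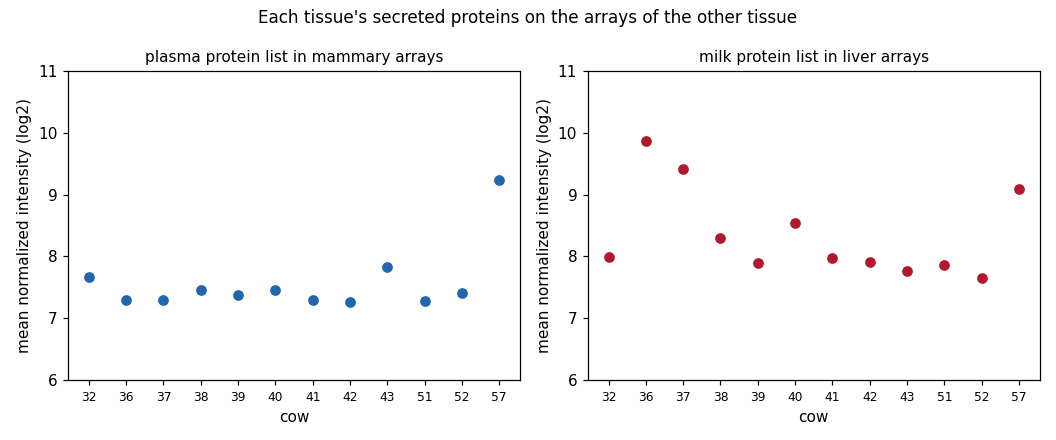
Mean normalized log2 intensity of the 20 plasma protein genes on each mammary array (left) and of the 9 milk protein genes on each liver array (right), by cow. Cow 57 stands at 9.24 among mammary arrays, and cows 36, 37 and 57 stand at 9.86, 9.41 and 9.09 among liver arrays.

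Over all genes, 2318 of 27841 were called higher in liver (8.33%) and 3155 were called higher in mammary gland (11.3%). Array names without a current symbol count as genes here. Of the 11068 genes with a current symbol, 1371 were called for liver and 1627 for mammary gland, which are higher shares. The difference had the same sign in every cow with a value for 2225 of the genes called for liver and 2781 of those called for mammary gland. Differences of at least 8-fold were found for 706 genes of the liver side and 449 of the mammary side, and of at least 32-fold for 334 and 117. The split between the tissues depended on how the arrays were scaled to each other. Median spot intensities were 83 to 177 on liver arrays and 60 to 86 on mammary arrays, and their part in this was not tested. Scaling by the 75th percentile moved the median difference of all genes from −0.04 to −0.90, and called 2247 genes for liver and 12082 for mammary gland. Quantiles set within each tissue moved it to 0.32 and called 7333 and 945 genes. No called gene was called in the opposite tissue under any of 5 other scalings, but 929 called genes changed sign with quantiles within each tissue. Under all 5 of them, 1984 of the liver calls and 945 of the mammary calls were kept. The list medians below are therefore also given relative to the median of all genes. Fewer cells of a type and less RNA per cell cannot be told apart in such data, and differences in the total RNA of a cell are not measured.

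Genes of secreted liver proteins were on the liver side almost without exception. All 20 plasma protein genes were called for liver, beside a share of 8.33% among all genes, with a median difference of 10.04. They ranged from FETUB, a fetuin (5.41 ± 0.69, up to 9.15 over the scalings), to AMBP, the precursor of alpha-1-microglobulin (12.09 ± 1.05). GC, which carries vitamin D in plasma (11.54 ± 1.24), AHSG, fetuin-A (11.33 ± 0.94), and ITIH1, a heavy chain of the inter-alpha-trypsin inhibitors (11.16 ± 0.62), stood next to it. Of 12 measured clotting genes, 11 were called for liver, with FGA, the fibrinogen alpha chain (11.62 ± 1.12), and PLG, plasminogen (11.44 ± 0.82), at the top. F13B and PROC, protein C, were not well above background on any mammary array. As means over the cows in this scaling, they were at least 81.7-fold and 82.2-fold higher in liver (limma adjusted p = 8.47e-17 and 1.79e-17). Within single slides their log2 differences went down to 6.1 and 5.9. F7, coagulation factor VII, was the exception and was called for mammary gland (−1.42 ± 0.56), a call that was lost under 3 of the 5 other scalings, with the sign turned to 0.47 in one of them. The 11 apolipoprotein and lipoprotein genes were all called for liver, from MTTP, which loads lipid onto apolipoprotein B (3.10 ± 0.44), to APOC3. Of 16 complement genes, 14 were called for liver, among them C8B of the membrane attack complex (9.15 ± 0.38) and CFB of the alternative pathway (8.95 ± 0.73). C3, the central component, differed less (3.20 ± 0.39). MBL2, a mannose-binding lectin, had a difference of −0.03 ± 0.35 at its brightest probe, whereas its other probes gave 7.17 and 6.44.

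The liver's metabolic routes were also higher in liver, with a wider spread among members. In the urea cycle, 7 of 8 genes were called for liver (median 3.88). CPS1, the entry enzyme of the cycle, had liver levels of 15.29 to 16.49 (median 16.19) and mammary levels of 6.13 to 7.69 (median 6.30). The tissues did not overlap and the difference was 9.66 ± 0.73. ASS1 (6.11 ± 0.36) and ASL (4.18 ± 0.35), which build and cleave argininosuccinate, followed. ARG1, the liver arginase, was called for mammary gland at its brightest probe, with a mean level of 11.09 ± 0.43 in liver and 12.09 ± 0.54 in mammary gland (log2, SD, n = 12), while its 3 other probes gave differences of liver minus mammary gland of 9.42, 7.76 and 3.35, so that the direction of ARG1 depends on the probe. The difference at the brightest probe itself turned to 0.64 under another scaling, and its call was lost when cow 36, 40, 41 or 51 was left out. Of 13 gluconeogenesis genes, 11 were called for liver (median 2.96). PCK1, the cytosolic phosphoenolpyruvate carboxykinase, was measured at 15.54 to 17.00 in liver (median 16.48) and at 6.33 to 7.75 in mammary gland (median 6.67), a difference of 9.66 ± 0.59. G6PC1, the glucose-6-phosphatase that releases free glucose, differed by 6.52 ± 0.25. Its probe was well above background on only 1 mammary array, and the difference ranged from 6.29 to 11.06 over the scalings. TAT, tyrosine aminotransferase, differed by 7.67 ± 0.32 and was well above background on 5 mammary arrays. GPT, alanine aminotransferase, was called for mammary gland (−1.48 ± 0.42), but not with quantiles within each tissue (−0.59).

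Of 16 genes of fatty acid oxidation and ketogenesis, 13 were called for liver (median 2.52) and the list's median varied little between cows, from 2.41 to 2.75. HADHB, a subunit of the mitochondrial trifunctional protein (3.97 ± 0.39), ACAA2, a mitochondrial thiolase (3.71 ± 0.22), and ECHS1, the short-chain enoyl-CoA hydratase (3.51 ± 0.24), were among them. BDH1, which interconverts acetoacetate and beta-hydroxybutyrate, ran the other way. It was not well above background on any liver array (5.93 to 6.21, median 6.02) and lay between 10.95 and 12.17 on the mammary arrays (median 11.73). It was at least 48.7-fold higher in mammary gland (limma adjusted p = 5.79e-15). All 7 measured bile acid genes were called for liver (median 3.24), led by the uptake carriers SLCO1B3 (8.70 ± 0.90) and SLC10A1, at least 98.4-fold higher in liver (limma adjusted p = 8.80e-17). Of 11 transcription factors of hepatocytes, 9 were called for liver. HNF4A, a nuclear receptor of hepatocyte identity, was measured at 14.54 to 15.30 in liver (median 14.96) and at 5.99 to 6.84 in mammary gland (median 6.09), where 2 arrays were well above background. CEBPA was called for mammary gland (−1.51 ± 0.70), a call lost under 3 of the scalings, with the sign turned to 0.39 in one of them, and its other, dimmer probe gave 1.17.

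**Figure D3:**
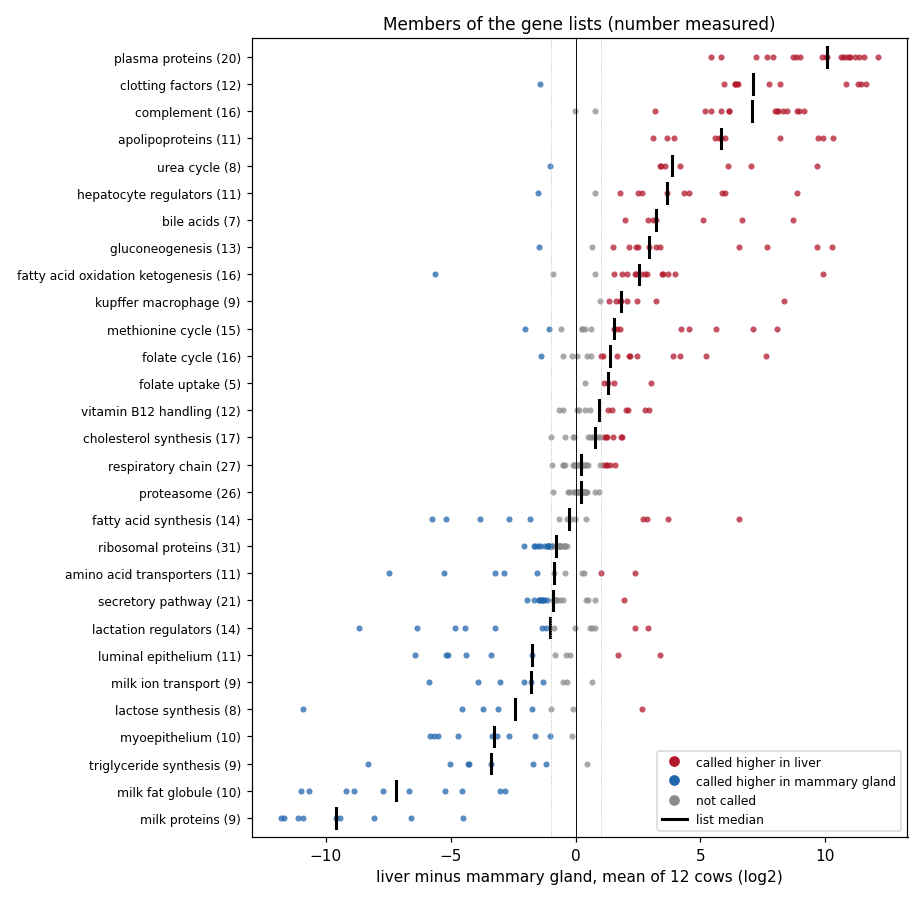
Mean liver minus mammary difference (log2, 12 cows) of every measured member of 29 gene lists, ordered by list median, with called genes in colour and the list median as a bar. All 20 plasma protein genes lie to the right of 5 and all 9 milk protein genes lie to the left of −4.

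The mammary side was led by milk proteins and the milk fat globule. All 9 measured milk protein genes were called for mammary gland, beside 11.3% of all genes, with a median difference of −9.58. GLYCAM1, a mucin-like milk glycoprotein, was measured at 6.04 to 7.43 in liver (median 6.45) and at 18.32 to 18.38 in mammary gland (median 18.38). Its difference of −11.77 ± 0.43 was the largest of the eligible genes with a current symbol on the mammary side, 3484-fold. CSN1S2 (−11.65 ± 0.81) and CSN3 (−11.12 ± 1.04), the alpha-S2 and kappa caseins, and PAEP, the beta-lactoglobulin (−9.42 ± 1.21), came close. LTF, lactoferrin (−6.57 ± 0.74), and PIGR, which carries immunoglobulin A across the epithelium (−4.51 ± 0.52), differed least of the list. No spot was saturated on any array. In these values the spread of CSN1S1 between cows lay in the liver arrays, which spanned 6.81 to 10.96. Joint quantile normalization gives the brightest probes of every array nearly the same values. The spread of the brightest milk protein genes between mammary glands can therefore not be read here.

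All 10 genes of the milk fat globule were called for mammary gland (median −7.18). FABP3, a fatty acid binding protein, had levels of 6.58 to 7.52 in liver (median 6.86) and 17.15 to 17.85 in mammary gland (median 17.57), a difference of −10.66 ± 0.37. MUC1 differed by −9.19 ± 0.26 and MFGE8, the lactadherin gene, by −7.71 ± 0.33. MUC15 was not well above background on any liver array and was at least 457-fold higher in mammary gland (limma adjusted p = 1.37e-18). XDH, xanthine dehydrogenase of the globule coat, differed least (−2.82 ± 0.50). In triglyceride synthesis, 7 of 9 genes were called for mammary gland, led by LPL, the lipoprotein lipase that frees fatty acids from plasma triglycerides (−8.31 ± 0.52), and GPAM, the first acyltransferase (−5.02 ± 0.58). DGAT2 (3.96 ± 0.61) was called for liver. Of these 8 calls 6 were kept under all 5 other scalings, and ACSL1, an acyl-CoA synthetase called at −1.16 ± 0.36, turned to 0.76 with quantiles within each tissue.

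Fatty acid synthesis was not on one side. Of 14 genes, 4 were called for liver and 5 for mammary gland, and the list median was −0.25. The carboxylase ACACA (−2.65 ± 0.56), the acetate-activating enzymes ACSS1 (−5.76 ± 0.29) and ACSS2 (−3.81 ± 0.87) and the desaturase SCD (−5.19 ± 1.53) were higher in mammary gland. The elongases ELOVL5 (3.72 ± 0.45) and ELOVL6 (2.84 ± 0.69) and the desaturase FADS2 (6.55 ± 1.55) were higher in liver. FADS2 and SCD varied widely among cows. FADS2 spanned 10.47 to 16.57 in liver (median 15.72) and 7.85 to 8.97 in mammary gland (median 8.35). SCD spanned 9.17 to 14.79 in liver (median 13.06) and 17.73 to 18.06 in mammary gland (median 17.92). In these values the spread of both genes lay in the liver arrays, but quantile normalization limits the spread of values as bright as SCD in mammary gland. Of 8 genes of lactose synthesis, 5 were called for mammary gland and PGM1, phosphoglucomutase, for liver (2.65 ± 0.25). B4GALT1, the galactosyltransferase that joins LALBA in lactose synthase, differed by −4.56 ± 0.34.

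Of 9 genes of ion and water transport into milk, 6 were called for mammary gland (median −1.78), led by AQP3, an aquaglyceroporin (−5.86 ± 0.54). Amino acid transporters were divided, with 5 of 11 called for mammary gland and 2 for liver. SLC7A5, the light chain of the large neutral amino acid exchanger, was measured at 6.45 to 7.88 in liver (median 6.83) and at 13.70 to 15.07 in mammary gland (median 14.38). SLC1A5, a glutamine carrier, differed by −5.25 ± 0.47, and SLC7A7, a carrier of cationic amino acids, by 2.37 ± 0.35 towards the liver. Among 14 regulators of lactation, 7 were called for mammary gland. ELF5, a transcription factor of alveolar cells, had levels of 7.09 to 7.88 in liver (median 7.30) and 15.86 to 16.29 in mammary gland (median 15.96), and GATA3 differed by −6.34 ± 0.33. IGF1 (2.91 ± 0.73) and GHR, the growth hormone receptor (2.36 ± 0.46), were called for liver. PRLR, the prolactin receptor, was not called in either direction, with 10.04 to 11.88 in liver (median 11.13) and 10.11 to 10.75 in mammary gland (median 10.26), so that the tissues overlapped.

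The folate cycle, methionine cycle and vitamin B12 handling lists each held more genes called for liver than for mammary gland, with smaller medians than the liver's secreted proteins. These lists also hold genes whose products use neither vitamin. Of 16 folate cycle genes, 10 were called for liver and 1 for mammary gland, with a median of 1.37. SHMT1, the cytosolic serine hydroxymethyltransferase, was measured at 14.76 to 15.58 in liver (median 15.37) and at 7.31 to 8.49 in mammary gland (median 7.62). The tissues did not overlap and the difference was 7.63 ± 0.38 (limma adjusted p = 3.93e-16). GLDC of the glycine cleavage system (5.24 ± 0.42), MTHFD1, the trifunctional enzyme of the cytosol (4.20 ± 0.28), and ALDH1L1, which oxidizes formyl-folate (3.90 ± 0.54), followed. GCSH (2.44 ± 0.31) and AMT (1.65 ± 0.54), the other members of glycine cleavage measured here, were called as well, as were MTHFS (2.17 ± 0.45), SARDH (2.12 ± 0.30) and SHMT2 (1.09 ± 0.32). The call of SHMT2 was lost with slide as a further fixed block and without cows 32 and 57. MTHFD2, the mitochondrial dehydrogenase, was the gene on the mammary side, with 6.27 to 6.52 in liver (median 6.39) and 6.99 to 8.66 in mammary gland (median 7.82). Its call was lost with quantiles within each tissue, where the difference was −0.79. TYMS (0.44 ± 0.38), GART (0.61 ± 0.23), ATIC (−0.51 ± 0.26) and MTHFD1L (−0.15 ± 0.20) were not called.

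Of 5 genes of folate uptake and storage, 4 were called for liver. GGH, which removes glutamates from folate, differed by 3.03 ± 0.30. SLC19A1, the reduced folate carrier (1.54 ± 0.40), FOLR2, a folate receptor (1.28 ± 0.32), and SLC46A1, the proton-coupled carrier (1.14 ± 0.61), differed less, and the call of SLC46A1 was lost with 75th percentile scaling and without cows 32 and 57. FPGS, which adds glutamates, was not called (0.38 ± 0.39).

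In the methionine cycle 8 of 15 genes were called for liver and 2 for mammary gland (median 1.53). BHMT, which remethylates homocysteine with betaine, had liver levels of 13.46 to 14.81 (median 14.00) and mammary levels of 5.90 to 6.68 (median 6.00), and its probe was well above background on only 2 mammary arrays. MAT1A, the liver form of S-adenosylmethionine synthetase, was measured at 13.07 to 14.03 in liver (median 13.61) and at 6.27 to 6.82 in mammary gland (median 6.47). Differences were 8.06 ± 0.58 for BHMT, which ranged from 7.87 to 12.16 over the scalings, and 7.09 ± 0.27 for MAT1A (7.04 to 8.96). AHCY, which hydrolyses S-adenosylhomocysteine (4.52 ± 0.28), and the creatine synthesis genes GATM (5.62 ± 0.85, up to 8.71 over the scalings) and GAMT (4.20 ± 0.34) were also higher in liver. PEMT, which methylates phosphatidylethanolamine (1.66 ± 0.30), and CBS (1.53 ± 0.34) and CTH (1.78 ± 0.26) of transsulfuration were called at smaller differences. MTR, the vitamin B12-dependent methionine synthase, was not called. It had 7.04 to 7.48 in liver (median 7.25) and 6.82 to 7.21 in mammary gland (median 6.99), a difference of 0.27 ± 0.19 with the liver higher in 11 of 12 cows. MTRR, the reductase that reactivates it, differed by 0.36 ± 0.27. AHCYL2 (−2.02 ± 0.33) and MAT2B, the regulatory subunit of the synthetase made outside the liver (−1.05 ± 0.22), were called for mammary gland, and neither call was kept with quantiles within each tissue, where AHCYL2 had −0.80 and MAT2B turned to 0.38.

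Of 12 genes of vitamin B12 transport and use, 6 were called for liver and none for mammary gland (median 0.94). MMUT, methylmalonyl-CoA mutase, was measured at 12.03 to 13.53 in liver (median 13.08) and at 9.82 to 10.29 in mammary gland (median 9.99), a difference of 2.96 ± 0.49. MMACHC, which trims cobalamin after uptake (2.79 ± 0.22), MMAA (2.11 ± 0.22) and MMAB (1.32 ± 0.31), which serve the mutase, and TCN2, the plasma carrier of vitamin B12 (2.00 ± 0.38), were on the same side. AMN, a part of the intestinal receptor complex, was called (1.48 ± 0.74), but not with 75th percentile scaling or with the mean of its probes. CD320, the cellular receptor of TCN2, ran from 11.93 to 12.46 in liver (median 12.20) and from 12.11 to 13.39 in mammary gland (median 12.94). Its difference of −0.68 ± 0.37 was not called, and turned to 1.14, called for liver, with quantiles within each tissue. LMBRD1 (0.57 ± 0.16), TCN1 (0.36 ± 0.35), MMADHC (0.13 ± 0.43), ABCC1 (−0.50 ± 0.27) and CUBN (0.06 ± 0.09), which was not well above background on any mammary array, were not called. Relative to the median of all genes, the list medians were 1.40 for the folate cycle, 1.57 for the methionine cycle and 0.98 for vitamin B12 handling, and stayed above 0 under the 5 other scalings.

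**Figure D4:**
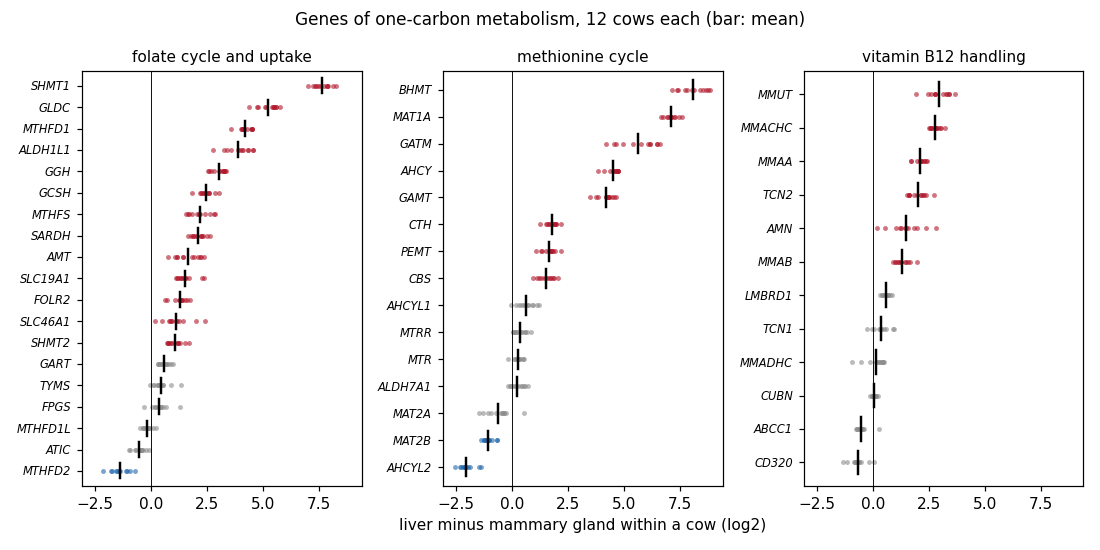
Liver minus mammary difference (log2) of each of the 12 cows for genes of the folate cycle and uptake, the methionine cycle and vitamin B12 handling, with the mean as a bar and called genes in colour. SHMT1, BHMT and MAT1A lie above 6 in every cow, while MTR lies near 0.

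Pairs of isozymes or related proteins put the contrast within a cow on a scale on which a shift of the whole array cancels. For 20 pairs with both members measured, the difference of the first member minus that of the second was tested by the exact two-sided sign-flip permutation test and adjusted over the 20 pairs. It was below an adjusted p of 0.05 for all 20, at 0.000543 for 18 of them. Beside this, 16979 of all 27841 genes had a limma adjusted p of at most 0.05 for the tissue difference. Arbitrary pairs were not tested. The largest was the pair of fatty acid binding proteins, FABP1 (10.83) against FABP3 (−10.66), at 21.48 ± 1.43. The hexose transporters SLC2A2 and SLC2A1 differed by 7.61 ± 0.87, a value that ranged from 5.07 to 12.14 over the settings, with the SLC2A2 probe well above background on only 1 mammary array. The lipid droplet proteins CIDEB and CIDEA differed by 9.92 ± 0.76. In one-carbon metabolism the pairs SHMT1 and SHMT2 (6.54 ± 0.59), MTHFD1 and MTHFD2 (5.59 ± 0.33), MAT1A and MAT2A (7.68 ± 0.57) and BHMT and MTR (7.79 ± 0.64, up to 11.92 over the settings) were each more liver-sided in their first member in 12 of 12 cows. Among the pairs named here, the first member was the more mammary-sided one in the phosphofructokinase and the acetyl-CoA synthetase pair. PFKL lay 0.97 ± 0.24 below PFKP, and ACSS1 lay 1.95 ± 1.03 below ACSS2, the latter in 11 of 12 cows. The arginase pair was positive in 9 cows only (0.99 ± 1.27; exact permutation test, adjusted p = 0.021) and rests on the ARG1 probe whose direction the other ARG1 probes did not share.

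**Figure D5:**
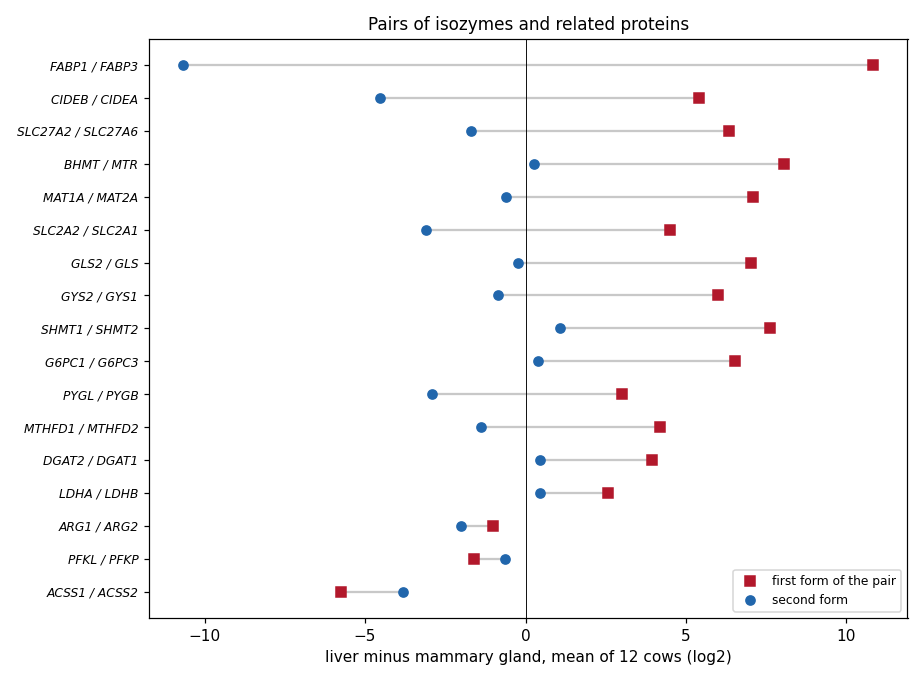
Mean liver minus mammary difference (log2, 12 cows) of both members of 17 of the 20 pairs of isozymes or related proteins, with the first member as a square and the second as a circle. FABP1 and FABP3 lie at 10.83 and −10.66, and the first member ACSS1 lies to the left of its partner, at −5.76.

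Markers of cell types other than hepatocytes and alveolar epithelium also differed between the tissues. Of 10 genes of myoepithelium, 9 were called for mammary gland (median −3.25), 6 of them under all 5 other scalings as well, and KRT17 and OXTR, the oxytocin receptor, were not well above background on any liver array (at least 45.2-fold and 26.1-fold, limma adjusted p = 1.43e-14 and 9.15e-15). The mean level of this list was 8.27 to 9.01 on liver arrays and 11.74 to 12.38 on mammary arrays. Of 11 genes of luminal epithelium, 6 were called for mammary gland, while KRT18 (3.40 ± 1.05) and KRT8 (1.69 ± 0.68), keratins that hepatocytes also express, were called for liver. Of 9 macrophage genes, 8 were called for liver, led by CD5L (8.32 ± 0.45) and C1QA (3.21 ± 0.58), and the list mean was 11.95 to 12.33 on liver arrays and 9.16 to 9.84 on mammary arrays. LYVE1, a marker of liver sinusoids and of lymphatics, was the 1 of 8 endothelial genes called for liver (3.34 ± 0.34). EMCN (−1.51 ± 0.30) and ENG (−1.04 ± 0.30) were called for mammary gland, calls that were lost with quantiles within each tissue, where ENG turned to 0.69, and the other 5 were not called. Of 11 stromal matrix genes, 6 were called for mammary gland, among them LUM (−3.61 ± 0.68) and COL1A2 (−3.22 ± 0.94), and FN1, which hepatocytes also secrete (4.13 ± 0.44), and POSTN (1.72 ± 0.93) were called for liver. Of these 8 stromal calls 5 were kept under all 5 other scalings. Of 11 T cell genes 3 were called for mammary gland, and of 5 genes of plasma cells 3, while 4 of 6 neutrophil genes were called for liver, beside 11.3% and 8.33% of all genes. Of these calls 1 of T cells, 0 of plasma cells and 2 of neutrophils were kept under all 5 other scalings. None of the 7 erythroid genes was called, and the erythroid list mean on the mammary array of cow 36 was 9.05, where the other 11 lay between 7.27 and 7.80. Of 7 adipocyte genes, FABP4 was called for mammary gland (−9.11 ± 0.58), CIDEC (1.87 ± 0.80) and CFD (1.58 ± 0.38) were called for liver, and PLIN1, LEP, LIPE and RETN were not called. Of 8 muscle genes, 2 were called for mammary gland. Among 5 bile duct genes, SPP1 (−8.96 ± 0.41), KRT7 (−4.36 ± 0.48) and EPCAM (−3.36 ± 0.64) were called for mammary gland, where epithelium also expresses them. CFTR was called for liver (1.21 ± 0.30), but not with 75th percentile scaling (0.47). The part of cell composition in the metabolic lists was not tested.

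Genes of general cell functions had smaller list medians, which moved with the scaling. None of 26 proteasome genes was called (median 0.22), and over the other scalings the median relative to all genes ran from 0.29 to 1.61. Of 27 respiratory chain genes, 5 were called for liver, and these comprised all 4 subunits of succinate dehydrogenase, from SDHD (1.08 ± 0.27) to SDHC (1.40 ± 0.12), and ATP5MC1 (1.58 ± 0.38). The respiratory chain median relative to all genes was 0.27, and 0.30 to 1.76 over the other scalings. Of 17 cholesterol synthesis genes, 6 were called for liver, led by SC5D (1.87 ± 0.75) and NSDHL (1.83 ± 0.57). The list median ranged from −0.21 to 1.33 between cows. On the liver arrays the mean level of this list ran from 10.80 in cow 57 to 13.05 in cow 41, and on the mammary arrays from 11.01 to 11.78. All 31 ribosomal protein genes had lower values in liver (median −0.77) and 11 were called, but no call was kept under all scalings, and relative to all genes the median turned to 0.19 with 75th percentile scaling and to 0.21 with quantiles within each tissue. Of 21 genes of the secretory pathway, 9 were called for mammary gland and PDIA4 for liver (1.94 ± 0.70), and 1 of these 10 calls was kept under all scalings. That list's median relative to all genes ranged from −0.84 to 0.46 over the scalings. Among 5 genes often used as references, GAPDH was called for liver (1.75 ± 0.32), PPIA (−1.34 ± 0.19) and YWHAZ (−1.25 ± 0.25) were called for mammary gland, calls that were lost with quantiles within each tissue, where PPIA turned to 0.39. ACTB differed by 0.02 ± 0.35 and was called for liver with quantiles within each tissue (1.38).

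By the rule for the largest differences, genes well above background on all 24 arrays with the same sign in all 12 cows were ranked, 998 of them called for liver and 1268 for mammary gland. On the liver side ORM1, an acute phase glycoprotein, stood first (11.37 ± 1.33, 2638-fold). It had 18.73 to 18.92 in liver (median 18.84) and 6.41 to 11.13 in mammary gland (median 7.01). SERPINA3-3, a protease inhibitor, TF, the transferrin gene, and MGC137014 followed, and the 12 places also held APOC3, A1BG, SERPINC1 (antithrombin), APOC4, PCK1, ITIH4 and CFB. On the mammary side GLYCAM1, CSN1S2, CSN3, LALBA, FABP3, CSN1S1, PAEP, MUC1, FABP4, ELF5, LPL and LPO, the lactoperoxidase gene (−8.05 ± 0.36), took the 12 places.

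The tissue difference was then compared between the vitamin groups, to ask whether an injection changed liver and mammary gland unequally. No gene of 27841 was called for B9, B12 or B9_B12 against the control cows (0%), with smallest limma adjusted p-values of 1, 0.191 and 0.875. At an unadjusted limma p under 0.05 there were 623 genes for B9 (2.24%), 562 for B12 (2.02%) and 1389 for B9_B12 (4.99%). Without cow 38, whose removal leaves cow 32 as the only B9_B12 cow, with its spread taken from the other groups, 33 genes were called for B9_B12. Without cows 32, 37 and 43, whose liver arrays share the slide of a second scan day, cow 38 is the only B9_B12 cow, again with its spread taken from the other groups, and 1 gene was called for B9_B12, LOC789175, named here after its value was seen (−2.92, limma adjusted p = 0.00274). The mean ALB difference was 11.13 in Ctl cows, 9.93 in B9 cows, 11.57 in B12 cows and 11.02 in B9_B12 cows, and cow 57 belongs to the B9 group. The mean of the cows' folate cycle medians was 1.41, 1.40, 1.30 and 1.40 in the same order, and that of the methionine cycle 1.44, 1.62, 1.28 and 1.43. For vitamin B12 handling it was 1.00, 1.01, 0.86 and 0.68, with ranges over cows that overlapped between all 4 groups. For the 5 folate uptake genes it was 1.14, 1.42, 1.19 and 1.87. The Ctl cows, at 1.12 to 1.16, lay below the B9 cows (1.27 to 1.55) and the B9_B12 cows (1.36 to 2.38). They lay within the range of the B12 cows (0.88 to 1.52), and this list difference was not tested. Milk proteins had the same pattern, with Ctl cows at −10.61 to −10.47, B9 cows at −10.20 to −8.47 and B9_B12 cows at −10.07 to −9.76. There too the Ctl cows lay within the range of the B12 cows (−11.2 to −8.23). Of the 2318 liver calls, between 2316 and 2318 had the same direction in the mean of each group, and of the 3155 mammary calls between 3154 and 3155. These calls were made with the same cows, so the shared direction does not test an effect of the injections.

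The arrays lay on 8 slides, and 4 slides held both tissues. Within these slides, between 99.5% and 100% of the liver calls and between 99.9% and 100% of the mammary calls had the same direction in liver arrays minus mammary arrays. The calls were made with these same arrays, so the shared direction is no independent test of a slide effect. The list medians within slides were 9.17 to 10.42 for plasma proteins, −11.14 to −8.18 for milk proteins, 1.36 to 1.49 for the folate cycle and 1.16 to 1.76 for the methionine cycle. With slide as a further fixed block beside cow, 2201 and 3095 genes were called.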

How the data were processed

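The deposited scanner output holds, per the file headers, median spot and local background intensity values from Feature Extraction 10.7.3.1, while the labels name Feature Extraction 9.1. The intensities are raw values of the authors' image software, not normalized between arrays. The authors' processed table, normalized in each tissue on its own, was not used. In R 4.3.3, intensities were background-corrected with normexp (offset 50, limma 3.58.1), normalized by quantiles over the 24 arrays jointly and put on the log2 scale. Control spots were dropped, outlier spots were set to missing (173 probes lost the difference of a cow), and spots of a probe were averaged. Each gene is represented by its brightest probe of 43653. Array names (27886) were paired with current symbols through RefSeq accessions of the ARS-UCD2.0 assembly (11113 matched). The array was annotated on another build, so names alone were joined.

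Within-cow differences were fitted by limma with cow as a fixed block and Benjamini-Hochberg adjustment over all probes. Single genes and isozyme pairs were tested by exact sign-flip permutation over cows. The same animal gave both tissues, which pairs the samples. Deviations from the treatment means correlated between the tissues of a cow by −0.30 to 0.24 (median 0.03). A probe not well above background on any array of a tissue gives a lower bound. It is the mean of the brighter tissue over a floored mean of the dimmer tissue. On each array of the dimmer tissue the higher of the probe's own signal and the lowest signal well above background was taken. Each bound holds for the mean over the cows with joint quantiles, and other scalings or single slides can give lower values. Median spot intensities were 83 to 177 in liver and 60 to 86 in mammary gland, over local backgrounds of 16 to 37, and the number of arrays limits the precision.

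The genes named are 6 markers, all members of the folate, methionine, vitamin B12, milk protein and isozyme lists except some not reported here, for other lists the 4 largest differences or those singled out after their values were seen, and the 12 largest differences in each direction among called genes above background on all arrays with the same sign in all cows. The comparison, the 40 lists and the tests were chosen with earlier results of these data known. Alternatives were other background corrections, scalings, probe summaries, filters, thresholds and blocks, and the cows left out in turn. Leaving out cows 32, 37 and 43, or 32 and 57, was chosen after seeing the data. The fits were tested on simulated data. Sequences of probes and genes were not used here.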

Additional observations from a re-analysis of the deposited data

Results flagged for a closer look

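Among 22 results compared over the 4 cows of the B12 group, 1 had a cow far from the others, where chance alone would give about 1 in 20. The median liver minus mammary difference of the gluconeogenesis genes was 3.41 in cow 52, and 2.68 to 2.80 in the other 3 cows.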

How the results depend on the processing

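The numbers of genes called for liver and mammary gland, 2318 and 3155, were 3619 and 9683 with the processed signal scaled to the 75th percentile, and 7333 and 945 with quantiles within each tissue. With 75th percentile scaling 12082 were called for mammary gland, with a 1.5-fold threshold 5665, and with a 4-fold threshold 994, beside 1158 for liver. Leaving out each cow gave 2308 to 2334 and 3127 to 3201. Without the pairing by cow (no replicate block) the counts were 2318 and 3155, and the missing block changed no other call. For B9_B12 against control the count of 0 became 33 without cow 38 (0 to 33 over the cows left out) and 1 without cows 32, 37 and 43, while B9 and B12 stayed at 0. The 6 markers kept direction and call, and the 20 isozyme pairs stayed under the threshold, in every alternative run for them.

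List medians relative to all genes moved by more than the spread between cows as follows. Without background correction they were 10.84 for plasma proteins, 8.33 for clotting factors, 7.95 for complement, 4.10 for bile acids, 4.48 for the urea cycle and −7.45 for the milk fat globule. A normexp offset of 16 gave 10.80, 8.27, 7.93, 4.03 and 4.43 for the first 5 of these. The processed signal gave 11.42, 12.28, 9.19, 6.55 and 6.04 for the same 5, 6.86 for apolipoproteins, 3.91 for gluconeogenesis, 3.53 for fatty acid oxidation, −2.67 for triglyceride synthesis, 2.23 for the folate cycle, 2.35 for the methionine cycle, 2.36 for vitamin B12 handling and −0.28 for ribosomal proteins. The 75th percentile and quantiles within each tissue gave 7.93 and 7.93 for clotting, 6.97 and 6.97 for apolipoproteins, 7.96 and 7.98 for complement, 4.53 and 4.54 for bile acids, 4.97 and 4.97 for the urea cycle, 4.29 and 4.29 for gluconeogenesis, 3.92 and 3.92 for fatty acid oxidation, −6.16 and −6.15 for the milk fat globule, −2.07 and −2.07 for triglyceride synthesis, 2.40 and 2.40 for the folate cycle, 2.30 and 2.30 for the methionine cycle, 1.68 and 1.68 for vitamin B12 handling and −0.27 and −0.26 for lactation regulators. The ribosomal protein median turned, to 0.19 and 0.21, and over the scalings those of the secretory pathway, fatty acid synthesis, the reference genes, T cells, the endothelium and the erythroid list turned too, up to 0.46, 0.81, 0.85, 0.25, 0.74 and 0.10. The mean of all probes gave 8.66 for plasma proteins, 6.46 for clotting, 5.52 for complement, 4.56 for the urea cycle, −11.06 for milk proteins, −5.73 for the milk fat globule, −2.13 for triglyceride synthesis and −0.97 for ribosomal proteins, and slide as a fixed block gave 1.61 for the folate cycle. The cause of these shifts was not tested. Signal over background limits dim genes, of which 209 called for liver and 88 called for mammary gland were never well above background in the other tissue.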
